A study of Anser sp. with 4 samples.

Results

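Ventral skin of female geese taken 10 days after molt was set against ventral skin taken before molt, to ask which transcript levels were back near their starting point and which were not. The comparison uses 2 of the 4 one-colour arrays of a study of feather regeneration, 1 array for each time, chosen by the time that the labels give. The other 2 arrays hold skin from 1.5 and 5 days after molt and were used only to say what had moved in between. The labels name 6 female geese that were penned for the experiment and sampled at every time. They do not say whether RNA of several birds was pooled, which bird gave which sample, or whether feathers had visibly regrown by 10 days, so the later state is called here by its day. No treatment, genotype or age separates the groups in the labels, and time relative to molt is the one named difference. For each array 400 ng of total RNA was labelled with Cy3 and 1.65 µg of labelled copy RNA was hybridised. The array carries oligonucleotide probes designed on chicken transcripts, so goose RNA was read through probes of another bird.

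Birds replace their feathers by molt, in which the old feather leaves the follicle and a new one is built from the base of the same follicle. Stem cells of the follicle feed a ring of dividing epithelial cells around a mesenchymal pulp, and signals of the Wnt, BMP, FGF and Hedgehog families set where barbs and shaft form. The keratinocytes then fill with keratins and related structural proteins, die and harden, so that RNA of the structural proteins of the feather is very abundant in skin where feathers are being built. Skin also holds dermis, fat, muscle, vessels and blood, and a bulk sample mixes them all.

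The files name each probe by a transcript identifier and pair 0 of the identifiers with a gene symbol. Markers of feather keratinocytes and of other cell types could therefore not be read, and the label of ventral skin could not be checked against them. Transcripts are described by their level, their number of probes and their course over time, and 4 are named by identifier. In a bulk sample fewer cells of a type and less RNA per cell cannot be told apart. With 1 array a side there is no replicate, no value has a replicate error, and no p-value is given. A difference between the arrays holds the difference between the samples of skin as well as that between the times. The check used in place of a replicate is agreement between different probes of the same identifier.

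Levels are given on the log2 scale as signal over each array's 75th percentile, so that a level of 0 is a spot at that percentile and a difference of 1 is 2-fold. Spots well above background made up 55.2% of the 43803 non-control spots at 10 days and 57.5% before molt, and 0 were saturated. The dimmest signal well above background stood at -4.01 at 10 days and -4.06 before molt. A dim value was raised to that bound. At least 1 array showed 19499 of 31533 identifiers, or 61.8%, well above background, and 17389 of these were well above background on both arrays.

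Most transcripts lay near their level before molt. Of the 19499 identifiers, 16985 (87.1%) were within 2-fold, and the middle of the distribution was narrow, with a median log2 ratio of -0.06 and quartiles of -0.43 and 0.32. The tails were uneven. The 5th percentile was -1.29 and the 95th was 0.98. A higher level by 2-fold or more at 10 days was found for 920 identifiers (4.72%), and a lower one for 1594 (8.17%). At 4-fold 93 (0.477%) were higher and 309 (1.58%) lower. Lower identifiers outnumbered higher ones at both folds, by a margin that depended on the scaling. Higher identifiers were 36.6% of those past 2-fold. The share was 8.98% after scaling on spike-in probes and 23.0% after normexp background correction, but 45.6% after median centring, 42.2% after quantile normalization and 42.0% in the authors' deposited table.

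**Figure D1:**
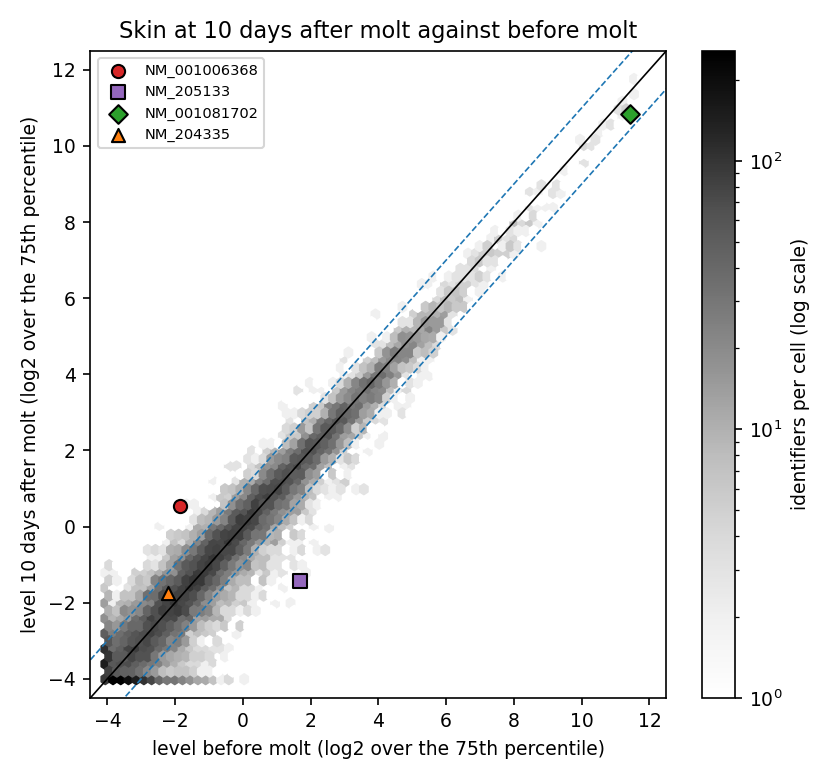
Level of 19499 identifiers at 10 days after molt (vertical axis) against before molt (horizontal axis), both as log2 signal over the array's 75th percentile, with darker cells holding more identifiers on a log scale. The solid line marks equal levels and the dashed lines 2-fold; 87.1% of the identifiers lie between the dashed lines, and the cloud is widest at low levels, where values end at the detection bound.

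Few transcripts were seen on 1 array alone, and those were dim. Well above background at 10 days but not before molt were 616 identifiers, with a median level of -3.35 and a highest level of 0.63. Well above background before molt but not at 10 days were 1494, with a median level of -3.35 and a highest level of 1.88. Every identifier above a level of 1.88 on either array was thus well above background on both. A ratio with a dim side is only a bound, which applied to 175 of 920 identifiers on the higher side and 413 of 1594 on the lower. Measured on both arrays were 745 higher and 1181 lower. The edge at 2-fold was crowded, with 202 identifiers between 1.9-fold and 2-fold higher against 157 between 2-fold and 2.1-fold, and 243 against 172 on the lower side. A small change of scale moves many identifiers across it.

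How near a transcript lay to its starting level went with its abundance. Among the 100 identifiers with the highest mean level over both arrays, 0 were higher by 2-fold and 3 were lower by 2-fold, and the SD of their log2 ratios was 0.35. For ranks 101 to 1000 the counts were 11 higher and 50 lower. For ranks 1001 to 5000 they were 113 and 206. Both shares were larger at the dim end, going from 0% higher and 3.00% lower in the first 100 to 6.45% higher and 10.6% lower in ranks 15001 to 19499. The lower share did not grow at every step, with 5.56% in ranks 101 to 1000 and 5.15% in ranks 1001 to 5000. The SD between probes of 1 identifier widened over the same ranks, from 0.19 to 0.56, and the part of this spread in the counts was not tested. The median log2 ratio was -0.23 for the first 100 and -0.20 for ranks 101 to 1000, against 0.02 for ranks 5001 to 10000. Under this scaling bright identifiers thus lay slightly lower at 10 days than those of middle level. Medians by level were not read under another scaling.

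The calls were not spread evenly over the kinds of identifier. Of 3655 identifiers named by a RefSeq mRNA, 4.40% were higher by 2-fold or more and 5.69% lower. Of 8342 named by a chicken Ensembl transcript the shares were 5.35% and 7.60%. Identifiers that begin with BX gave 4.52% and 11.1% over 952, and those that begin with CR gave 3.55% and 9.61% over 3495. Lower calls were thus a larger share of the BX and CR identifiers than of the RefSeq mRNAs. The same order was seen among identifiers of similar level, as in ranks 5001 to 10000 the lower share was 4.52% for 995 RefSeq mRNAs and 10.6% for 763 CR identifiers.

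Spread inside the slide was measured in 3 ways. Over 23 probes spotted 5 times and well above background in every spot, the pooled SD of the log2 ratio between spots was 0.13. The mean ratios of these probes ran from -0.86 to 0.51, and 0 of them had all 5 spots past 2-fold. Between different probes of 1 identifier the SD was 0.50, over 3873 identifiers. This SD varied with level, from 0.19 in ranks 1 to 100 to 0.57 in ranks 10001 to 15000, and how much of it is error was not tested. An identifier read by 1 probe has no other probe to average it with, and 15128 of the 19499 were read by 1 probe. With the array cut into 4 blocks of rows and into 4 blocks of columns, the median log2 ratio stayed between -0.04 and 0.02, the share at least 2-fold higher between 3.31% and 6.18%, and the share at least 2-fold lower between 5.48% and 7.54%.

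Agreement between probes was partial. Of the 4371 identifiers with 2 or more probes in use, 3380 (77.3%) had every probe within 2-fold. Every probe was at least 2-fold higher for 40 (0.915%) and at least 2-fold lower for 46 (1.05%), an order that turned under median centring, with 55 higher and 36 lower. Set against the calls on the mean of the probes, these were 40 of 119 identifiers (33.6%) called higher and 46 of 155 (29.7%) called lower. Every probe lay on the called side of 0 for 107 of the 119 and 137 of the 155. The mean of these same probes made the call, which raises such shares above the 56.3% of all 4371 with their probes on 1 side. Past 4-fold on the mean, 1 of 5 higher and 2 of 10 lower identifiers had every probe past 4-fold, 3 and 7 had every probe past 2-fold, and all of them had every probe on 1 side. In 38 identifiers 1 probe was at least 2-fold higher while another was at least 2-fold lower.

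A change chosen on some probes was smaller on the others. Calls were made on alternate probes of each identifier, and the remaining probes were held back and then read. For the 202 identifiers chosen as 2-fold higher, the choosing probes gave a median log2 ratio of 1.23 and the held-back probes 0.50. Of them 46 (22.8%) were again past 2-fold and 72.8% were on the same side of 0. The 244 chosen as lower had medians of -1.39 and -0.41, with 50 (20.5%) past 2-fold again and 68.9% on the same side. Bright and dim identifiers differed here on the higher side. Above the 75th percentile, 45 identifiers chosen as higher kept a median of 0.72 with 88.9% on the same side, against 0.45 and 68.2% for the 157 at or under it. On the lower side the same split gave -0.34 for 96 and -0.41 for 148 identifiers. The difference was not tested. Across the 4371 identifiers, Pearson's r between choosing and held-back probes was 0.31, given as a description since both sets of probes were read on the same arrays.

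**Figure D2:**
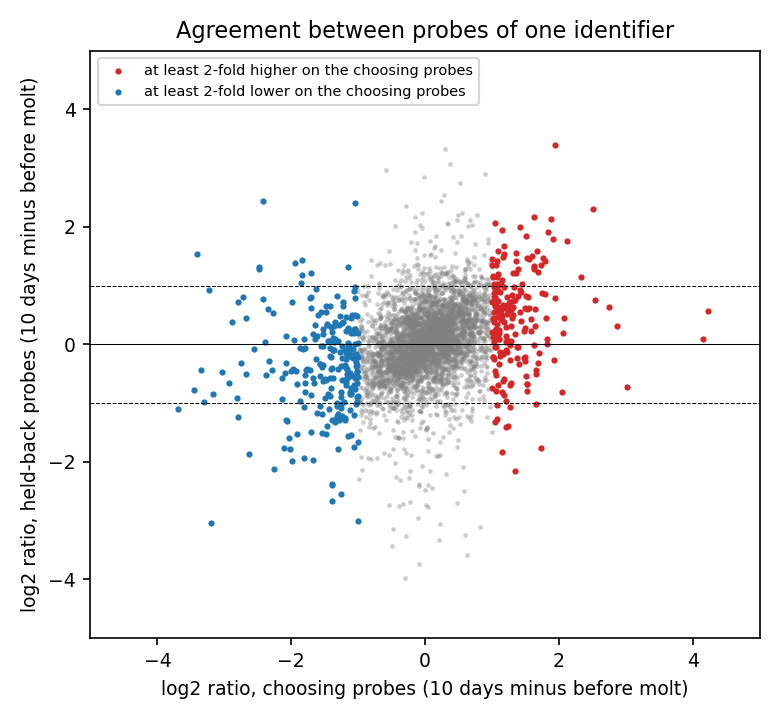
Log2 ratio of 10 days to before molt on the held-back probes (vertical axis) against the choosing probes (horizontal axis), with 1 point for each of 4371 identifiers. Of the 202 red points, chosen as at least 2-fold higher, 22.8% lie above the upper dashed line, and of the 244 blue points, chosen as at least 2-fold lower, 20.5% lie below the lower one.

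The identifier that the naming rule ranked first for a higher level at 10 days was NM_001006368. Its weaker probe had the largest ratio among 3643 identifiers read by 2 or more probes that were all well above background on both arrays. Its 2 probes had levels of 0.56 and 0.52 at 10 days, against -1.94 and -1.78 before molt. The log2 ratios were 2.51 and 2.31, and the mean was a 5.30-fold higher level at 10 days. The probes differed from each other far less than the 2 arrays did, which the choice by the weakest probe favours. In between, the probes stood at -0.22 and -0.26 at 1.5 days and at -3.16 and -2.85 at 5 days. The course was thus not steady, with the mean 1.62 above the level before molt at 1.5 days and 1.14 below it at 5 days, both on the log2 scale. Under normexp correction the log2 ratio at 10 days was 1.27.

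Ranked first for a lower level by the same rule was NM_205133. Its 2 probes had levels of -1.82 and -1.06 at 10 days, against 1.37 and 1.97 before molt. The mean was 8.66-fold lower at 10 days, a log2 ratio of -3.11 that was -2.01 under normexp correction. It was lower than before molt at every later time, with mean log2 ratios of -1.95 at 1.5 days and -3.96 at 5 days. Its level at 10 days was above that of 5 days on both probes but well short of the level before molt.

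Both identifiers head ranked groups of 10. The 10 that were highest by their weakest probe had mean log2 ratios of 1.61 to 2.67 at 10 days. At 5 days 4 of them were at least 2-fold higher than before molt, 4 were within 2-fold and 2 were at least 2-fold lower. The 10 lowest had mean ratios of -3.11 to -1.50 at 10 days, and 6 of them were at least 2-fold lower at 5 days, with the other 4 within 2-fold. The lower group thus held 0 identifiers at least 2-fold on the other side at 5 days, and the higher group held 2. For comparison, among all 20386 identifiers read over the 4 arrays, 1727 were at least 2-fold higher at 5 days and 2429 at least 2-fold lower. Lower identifiers were thus not rare at 5 days. Each list holds only 10, and whether the 2 lists differ from each other or from all identifiers was not tested. The weakest probe ranged between 2.31 and 1.42 over the higher list and between -3.04 and -1.48 over the lower list, values that chose the lists and are given as a description.

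What had returned was read from identifiers that stood apart at 5 days. These counts take the 20386 identifiers that 1 or more of the 4 arrays showed well above background. The array from before molt is shared by all 3 later times, so an error on it enters each ratio. An error on the array of 5 days enters the choice of a set but not its ratios at 10 days, which favours a return. The same holds for sets chosen at 1.5 days. How much of the return this makes up was not tested. Of all 20386, 87.9% were within 2-fold of before molt at 10 days. At 5 days 810 (3.97%) were at least 4-fold lower than before molt and 192 (0.942%) at least 4-fold higher.

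By their values on the arrays, about as many of the 810 lower identifiers were within 2-fold at 10 days as were not. Most rest on 1 probe. Those with 2 or more probes were 18 of 330 at levels under 0 before molt and 27 of 352 at 0 to 3. At 3 to 8 they were 7 of 93, and at 8 or more 1 of 35. Among higher identifiers they were 19 of 161, 7 of 25 and 2 of 6 at the first 3 of these levels. At 10 days 389 (48.0%) were within 2-fold of before molt, 410 (50.6%) were still at least 2-fold lower, and 11 were at least 2-fold higher. Their median log2 ratio was -2.38 at 1.5 days, -2.74 at 5 days and -1.03 at 10 days, with quartiles of -1.75 and -0.38 at 10 days. The median share of the log2 change at 5 days that was gone by 10 days was 62.7%, a share that holds any error on the array of 5 days. Still at least 4-fold lower were 145 (17.9%). Of the 192 higher identifiers 73 (38.0%) were within 2-fold at 10 days and 117 (60.9%) still at least 2-fold higher, with a median log2 ratio of 1.83 at 1.5 days, 2.28 at 5 days and 1.31 at 10 days, and 47.3% of the change gone. Whether the directions differ was not tested, and the order of their shares did not hold throughout. Within 2-fold at 10 days were 41.8% of the higher set and 39.2% of the lower set after spike-in scaling, and 53.6% and 49.8% when no filter on dim probes was set. Among identifiers at least 2-fold apart at 5 days, 70.6% of the higher and 64.2% of the lower were within 2-fold at 10 days.

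Identifiers chosen at 1.5 days gave like shares. Of 734 (3.6%) that were at least 4-fold lower at 1.5 days, 324 (44.1%) were within 2-fold at 10 days and 403 (54.9%) still at least 2-fold lower. Of 156 (0.765%) at least 4-fold higher, 70 (44.9%) were within 2-fold and 83 (53.2%) still higher. The sets from 1.5 and 5 days share identifiers as well as the array before molt and do not count as separate evidence. Of 14746 identifiers that were within 2-fold at both 1.5 and 5 days, 94.1% were within 2-fold at 10 days as well, and 325 were higher and 546 lower at 10 days alone.

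The deepest falls at 5 days divided by abundance. The limits between levels were set after the values were seen, so the counts are descriptions. Among the 810 at least 4-fold lower at 5 days, 85.7% of 35 at levels of 8 or more before molt were within 2-fold at 10 days. The share was 37.6% of 93 at levels of 3 to 8, 43.8% of 352 at 0 to 3 and 51.5% of 330 under 0. Below a level of 8 it thus did not rise with abundance. At least 16-fold lower at 5 days were 136 identifiers, of which 54 (39.7%) were within 2-fold at 10 days, 82 (60.3%) still at least 2-fold lower and 46 (33.8%) still at least 4-fold lower. Of the 31 with a level of 8 or more before molt, 27 (87.1%) were within 2-fold at 10 days, and their median log2 ratio was -6.19 at 5 days and -0.33 at 10 days. Of the 41 with a level between 3 and 8, 11 (26.8%) were within 2-fold, and their medians were -5.03 and -2.35. Of the 64 with a level between 0 and 3, 16 (25.0%) were within 2-fold, and their medians were -4.55 and -1.67. The brightest identifiers of this group were thus those most often back near their level before molt. Whether their probes separate near-identical transcripts was not tested, so the 31 may not count as separate genes. The change did not come at 1 clear level, as 0 of 5 identifiers at levels 6 to 7 were within 2-fold, 4 of 7 at 7 to 8, 3 of 4 at 8 to 9, 0 of 2 at 9 to 10, 11 of 12 at 10 to 11 and 13 of 13 at 11 to 12.

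**Figure D3:**
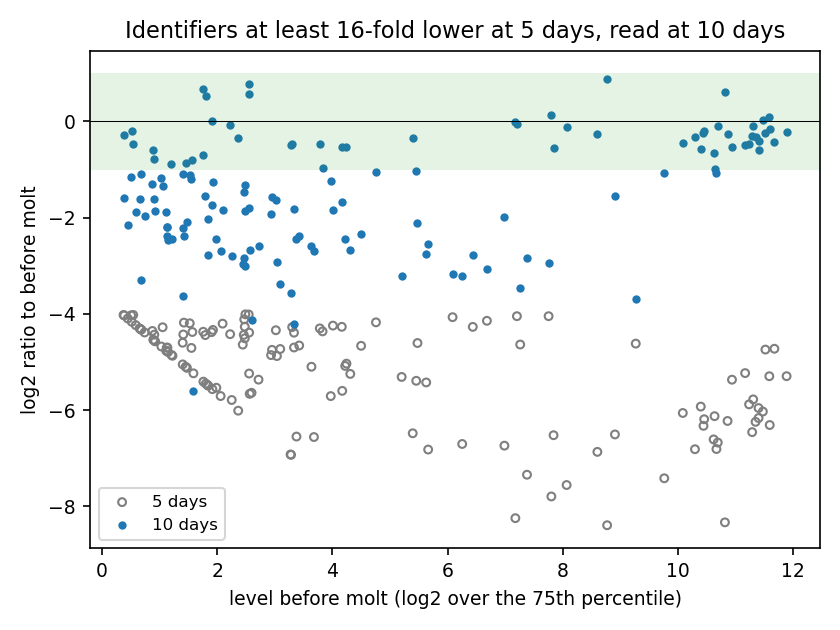
Log2 ratio to before molt at 5 days (open circles) and 10 days (filled circles) for the 136 identifiers at least 16-fold lower at 5 days, against their level before molt on the horizontal axis (log2 over the 75th percentile). The green band marks the range within 2-fold, which holds 27 of 31 identifiers at 10 days where the level before molt was 8 or more, and 11 of 41 where it was between 3 and 8; the slanting lower edge at the left is the detection bound at 5 days.

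At the low end the size of the fall was limited by detection. At levels of 0 to 1 before molt, 15 of the 16 identifiers were not well above background at 5 days, and at levels of 1 to 2 it was 17 of 29. From a level of 4 upward 0 were counted as below background at 5 days. The contrast between levels of 3 to 8 and those of 8 or more thus rests largely on measured values, apart from 2 identifiers at levels of 3 to 4. At 5 days the mean of NM_001081702 also holds a dim probe that was raised to the bound. Nearly all of these identifiers were read by 1 probe. Only 3 of the 41 and 0 of the 31 had 2 or more probes in use. One of those 3 was NM_001081702, whose mean level of 7.20 before molt averages 2 bright probes with a dim one. Only 4 identifiers were at least 16-fold higher at 5 days, and all 4 were still at least 4-fold higher at 10 days.

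The most abundant transcripts made up largely the same set at both times. Ranked by level at 10 days, the first 100 identifiers ran from 8.42 to 11.96, and 91 of them were also among the first 100 before molt. The lowest rank before molt of any of them was 140. Their log2 ratios at 10 days had a median of -0.22 and ran from -1.08 to 0.87, with 0 higher and 3 lower by 2-fold or more. Ranked by level before molt, the first 100 had a median of -0.26 and ran from -3.68 to 0.87, with 0 higher and 7 lower. The lowest rank at 10 days among them was 429. Of those first 100 before molt, 31 had been at least 2-fold lower at 5 days, and 29 of these at least 16-fold lower. Over all 20386 identifiers the counts at 5 days were 2429 at least 2-fold lower and 136 at least 16-fold lower.

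The 29 transcripts were lower at each time after molt in the middle of their range. Their median log2 ratio was -2.35 at 1.5 days, -6.16 at 5 days and -0.33 at 10 days. At 10 days 4 were above their level before molt, none of them by 2-fold, and 4 were at least 2-fold lower. The one that had returned least was at -3.68. The other 71 had a median of -0.23 at 10 days, and 55 of them were below their level before molt, so both medians lay slightly below the starting level. All 29 were read by 1 probe. Whether these probes separate near-identical transcripts was not tested, so the number of separate genes among them is uncertain.

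**Figure D4:**
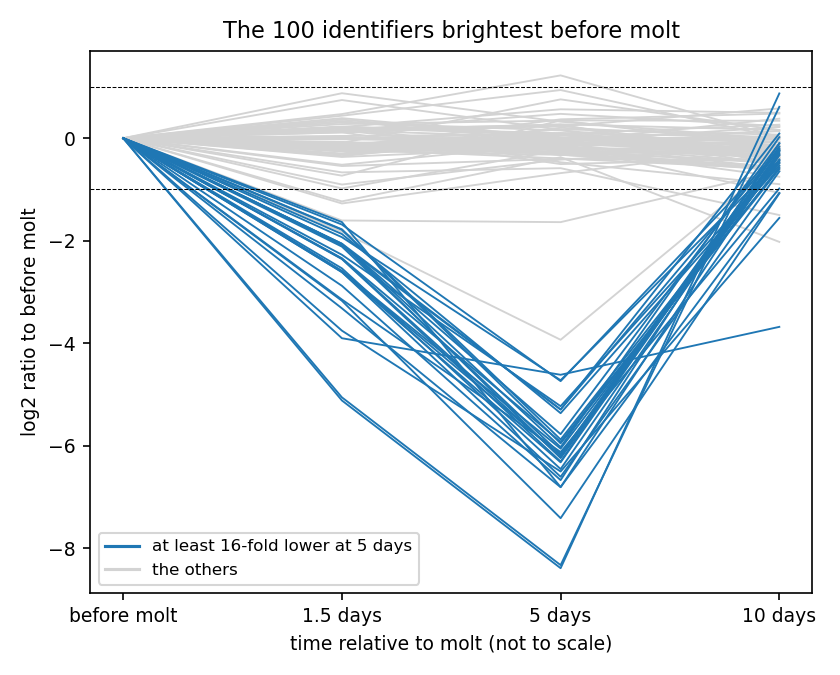
Log2 ratio to before molt (vertical axis) at each time (horizontal axis, not to scale) for the 100 identifiers brightest before molt, with 1 line each. The 29 blue lines, at least 16-fold lower at 5 days, come back to a median of -0.33 at 10 days, close to the median of -0.23 of the 71 grey lines.

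NM_001081702 was the identifier with the deepest fall at 5 days on its weakest probe among 2866 that met the rule for a return, which asked for 2 or more probes well above background on all arrays and within 2-fold at 10 days. The 2 probes that met it had levels of 10.48 and 11.21 at 10 days, against 11.29 and 11.57 before molt. Their mean was 1.50-fold lower at 10 days, a log2 ratio of -0.58. In between the probes stood at 8.79 and 9.88 at 1.5 days and at 6.02 and 7.09 at 5 days, where the mean was 29.3-fold below that before molt. Both probes thus put it among the brightest transcripts at the start and again at 10 days. A further probe of this identifier, not well above background at 5 days and so outside the rule, read -0.26 at 10 days and -1.25 before molt, a log2 ratio of 0.99 on the other side of 0. The counts of all identifiers average the 3 probes. By that mean the log2 ratio was -0.06 at 10 days and -4.05 at 5 days, and NM_001081702 stands among the deep fallers with a level of 3 to 8. The sign of this small ratio turned with the scaling, at 0.03 after median centring and 0.11 after quantile normalization.

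NM_204335 had the largest rise at 5 days among identifiers that met the same rule. Its 2 probes had levels of -1.57 and -1.91 at 10 days, against -2.14 and -2.30 before molt. The mean was 1.40-fold higher at 10 days, a log2 ratio of 0.48 that was within the SD of 0.50 between probes. At 1.5 days the probes stood at -0.46 and -1.29 and at 5 days at 0.18 and 0.06, where the mean was 5.08-fold above that before molt. Both probes followed the same course, and both were slightly above their starting level at 10 days. A further probe of this identifier was well above background on 2 of the 4 arrays and is left out. It read -5.04 at 10 days and -4.39 before molt, a log2 ratio of -0.65 on the other side of 0. Both of these levels lay under the dimmest signal well above background. With no filter the log2 ratio of the identifier at 10 days was 0.11.

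**Figure D5:**
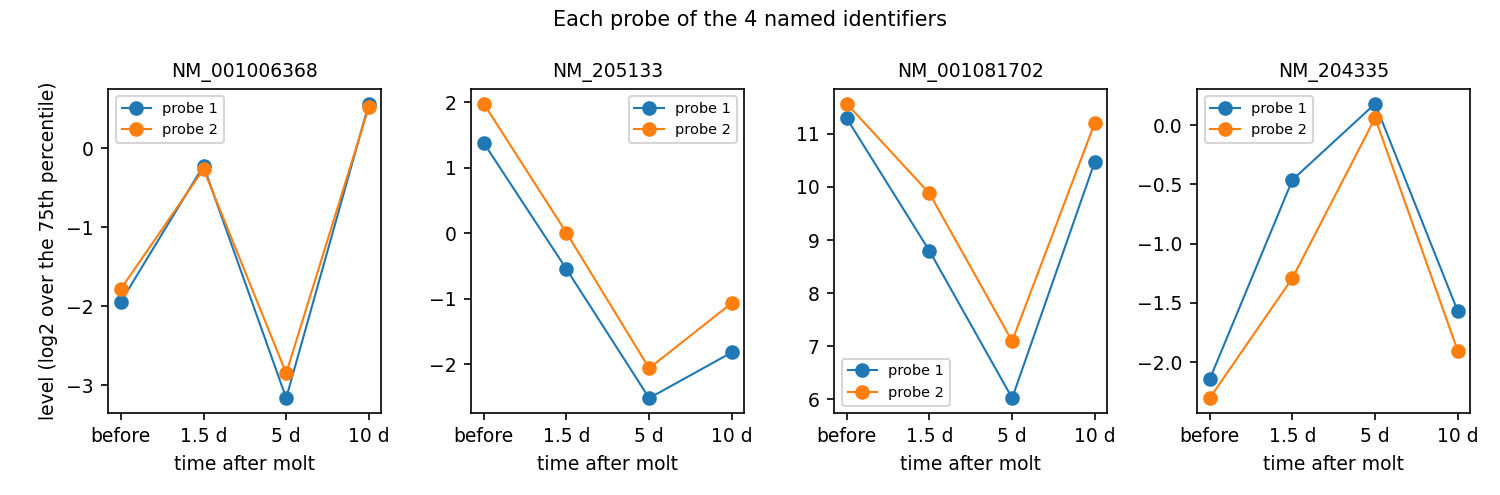
Level (vertical axis, log2 over the 75th percentile, with scales that differ between panels) over time (horizontal axis: before molt, then days after molt) for the 4 named identifiers. Each line is a probe well above background on all 4 arrays. A further probe of NM_001081702 and a further probe of NM_204335 did not meet this and are not drawn. The drawn probes of 1 identifier run together, which the choice by the weakest probe favours. Those not drawn had log2 ratios at 10 days of 0.99 and -0.65, on the other side of 0 from the drawn ones. By their mean NM_001006368 ends 5.30-fold above and NM_205133 8.66-fold below the level before molt, while NM_001081702 and NM_204335 end within 2-fold of it.

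Where several probes read a transcript, returns could be checked probe by probe. There were 88 identifiers with all probes lower by 2-fold or more at 5 days. For 37 of them (42.0%) every probe was within 2-fold at 10 days, for 16 (18.2%) every probe was still at least 2-fold lower, and 35 were mixed. There were 152 with all probes higher by 2-fold or more at 5 days, of which 83 (54.6%) had every probe within 2-fold at 10 days, 20 (13.2%) had every probe still past 2-fold, and 49 were mixed. In both directions more identifiers thus had every probe within 2-fold than had every probe still past it. Of all 4371 identifiers with 2 or more probes in use on the 2 arrays, 77.3% had every probe within 2-fold at 10 days. Every probe was at least 2-fold higher for 0.915% of them and at least 2-fold lower for 1.05%. A probe can come within 2-fold by a small step across that line.

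Most falls chosen at 5 days on alternate probes were not seen at that size on the held-back probes. For the 370 identifiers chosen as 2-fold lower, the held-back probes gave medians of -0.25 at 1.5 days, -0.18 at 5 days and -0.08 at 10 days, and 24.9% were past 2-fold at 5 days. For 107 chosen as 4-fold lower the held-back median at 5 days was 0.02, with 29.9% past 2-fold. The 435 chosen as 2-fold higher had held-back medians of 0.56, 0.78 and 0.30 at the 3 times, and 40.2% were past 2-fold at 5 days. The shares returned given above therefore include identifiers whose change at 5 days was not seen on a further probe, and for identifiers with 1 probe this could not be read. In 92 of the 370 and 175 of the 435 the held-back probes were past 2-fold at 5 days too. Their held-back medians at 10 days were -0.60 and 0.70, and 32.6% and 28.0% were past 2-fold then. These subsets were chosen on both sets of probes at 5 days, so their values are a description.

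Transcripts that stood apart at 10 days were also read at the earlier times, over the probes well above background on any of the 4 arrays, which gives slightly other counts than the probes of the 2 arrays. The 90 identifiers at least 4-fold higher at 10 days had a median log2 ratio of 1.24 at 1.5 days, 1.55 at 5 days and 2.32 at 10 days. Their median level was -0.64 at 10 days and -3.36 before molt. The 307 at least 4-fold lower had medians of -1.88, -1.90 and -2.44, and a median level of -3.03 at 10 days and -0.34 before molt. The choice of the sets favours the low levels of -3.36 before molt and -3.03 at 10 days, which lie near the detection bounds. On the probes of the 2 arrays, 36 of 93 higher and 115 of 309 lower ratios past 4-fold were bounds. The medians at 10 days follow from the choice of the sets, and the medians at 1.5 and 5 days share the array from before molt with them, so an error on that array enters all 3.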

How the data were processed

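The authors deposited spot intensities from Agilent Feature Extraction, version 10.7 per the submitters' processing notes and release 10.7.3.1 per the file headers. All 4 arrays lay on 1 slide and were scanned once. Their processed intensity is background-subtracted, with no scaling from array to array. A log2 table of the whole series was also deposited; how it was made is not given in the sources used, and it served as an alternative.

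From the processed intensity, log2 values were taken and each array's 75th percentile over non-control spots was subtracted. Probes with a spot flagged as an outlier on any array were left out (39). Probes well above background on at least 1 compared array were kept, dim values were raised to the array's lowest value well above background, and probes were averaged per identifier. Identifiers past 2-fold were counted. The work, with quantile normalization, used pandas 2.3.3 and numpy 2.4.6 in Python 3.11.15. Normexp used limma 3.58.1 under R 4.3.3. The counting code was run on simulated 4-fold changes with every probe taken as detected and less noise than the SD between probes. That run checks the code and not the error of the counts.

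With 1 array per time no test was possible, and the number of arrays limits the precision. The alternatives were median centring, quantile normalization, spike-in scaling, normexp with an offset of 50 (on median spot and background signals, as mean signals were not used here), no filter, the brightest probe, detection on every array compared, and the deposited log2 values. Identifiers were named where 2 or more probes, all well above background, had the weakest probe farthest from before molt (the first in each direction), or where probes within 2-fold at 10 days had stood farthest apart at 5 days. Gene lists could not be matched, since identifiers carry no symbols. The comparison, its lists and the naming rule were chosen with earlier results of these data known.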

Additional observations from a re-analysis of the deposited data

Results flagged for a closer look

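The spike-in control RNAs, which enter only the alternative of spike-in scaling, stood higher against the goose signal at 10 days than before molt. Each of the 6 spike-in probes had 32 spots. With levels scaled on the 75th percentile, they averaged 0.41 ± 0.07 (SD, 6 probes) higher on the log2 scale, and every probe lay between 0.32 and 0.52 higher. This was noticed because it is a signal in data that the main comparison does not use. Its source was not tested, and the counts describe levels relative to the rest of the array's signal.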

How the results depend on the processing

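No paired analysis was possible because each time has 1 array, so no replicate could be left out or blocked. Signal over background limits the counts, as dim probes enter with no filter. For the 4 counts at 2-fold higher, 2-fold lower, 4-fold higher and 4-fold lower, spike-in scaling gave 350, 3546, 40 and 601, normexp 135, 451, 8 and 56, and no filter 1700, 2611, 237 and 612. Detection on both arrays gave 60 and 201 at 4-fold. Identifiers with every probe past 2-fold were 14 higher and 183 lower after spike-in scaling, 7 and 13 after normexp, and 72 lower with no filter. The share back within 2-fold at 10 days was 39.2% of those 4-fold lower at 5 days after spike-in scaling. It was 46.2% and 53.6% of those 4-fold higher at 5 days after normexp (13 identifiers) and with no filter. For those 4-fold higher at 1.5 days it was 56.7% (30 identifiers) and 55.8%, and for those 4-fold lower at 1.5 days 50.1% in the authors' table. Spike-in scaling by construction moved every ratio alike, with a median over all identifiers of -0.47 against -0.06. Normexp added an offset of 50 to every signal, against a median processed signal of 12.6 at 10 days and 15.2 before molt. By construction this offset draws the ratios of dim spots toward 0. With no filter 31533 identifiers were read in place of 19499, with no bound for dim values. How much of each change came from these settings was not tested, nor was the cause of the other changes. The log2 ratios of NM_001006368 and NM_205133 kept their direction throughout, but the orders that follow did not. NM_001081702, at -0.06, was at 0.03 after median centring, 0.11 after quantile normalization and 0.06 in the authors' table. The 40 higher and 46 lower identifiers with every probe past 2-fold became 55 and 36, 47 and 41, and 47 and 41 under those settings, and 36 and 35 with detection on both arrays. The shares returned by 10 days of those 4-fold higher and 4-fold lower at 5 days, 38.0% and 48.0%, were 41.8% and 39.2% after spike-in scaling and 53.6% and 49.8% with no filter. For sets chosen at 1.5 days the same shares were 44.9% and 44.1%. These became 44.2% and 45.9% under median centring, 43.2% and 43.7% under quantile normalization, and 37.9% and 45.6% after spike-in scaling. They were 43.5% and 50.1% in the authors' table and 41.4% and 45.5% with detection on every array compared. Their order held with normexp, no filter and the brightest probe. Under median centring (18 results), quantile normalization (18) and the brightest probe (14), each count stayed within 1.5 times its value. Each share stayed within a binomial interval that takes identifiers as independent, and each log2 ratio moved by less than the SD between probes. These bounds hold no replicate error, and an order can turn inside them. Of the 920 higher and 1594 lower identifiers, 92 and 350 were past 2-fold under every alternative. Normexp with its offset alone kept 135 of the 920 and 422 of the 1594. The share returned among deep fallers stayed between 78.8% and 93.5% at levels of 8 or more, and between 23.7% and 37.0% at levels of 3 to 8, a division chosen after seeing the data.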
